A study of Drosophila melanogaster with 16 samples.

Results

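The genes described here are those whose annotated span, from the first to the last base of the gene, is 50 kb or more. One model stood for each gene, the one with the longest coding sequence, and chromosome 4 and the genes dp, para and CG30115 were left out. The rule found 363 of 14229 genes. OSS cells, a cultured line of ovarian follicle cells from Drosophila melanogaster, were given 500 pmol of siRNA per 10 cm plate by electroporation and harvested 6 days later for RNA sequencing. The siRNA was directed against GFP (siGFP, the negative control), piwi (siPIWI), the Paf1 gene (siPAF1, listed as atms) or both genes (double knockdown). RNA was taken from a pellet that the labels call NUN, without spelling the name out, and from cytoplasm lysates. Each of the 8 groups had 2 libraries, whose names begin with OSS_146 and OSS_147. All cells received an siRNA, and nothing states whether the 2 libraries of a group came from separate cultures, so p-values measure the spread between these libraries, which may be technical.

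The Paf1 complex accompanies elongating RNA polymerase II, helps it through chromatin and promotes histone modification over gene bodies, and Paf1 is the subunit that names it. Piwi is the nuclear Argonaute protein that, guided by piRNAs, silences transposons at transcription in these cells, and transcription next to an active transposon insertion can change with it. A long gene is copied over a long time, its introns make up most of the nascent RNA, and in flies such genes often encode adhesion molecules, channels and regulators of development. The comparison by span asks whether Paf1 loss bears on long transcription units.

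The label "long gene" fitted the members on the chromosome arms and not most of the others. The arms 2L, 2R, 3L, 3R and X held 217 members, with a median span of 71.5 kb, a range of 50.4 to 392.4 kb and a median coding length of 2.99 kb, or 4.28% of the span. The median span of all genes on these arms was 2.0 kb. Of the 217, 214 could be matched to a later annotation, and all 214 were at least 50 kb long there. The remaining members lay on unplaced or heterochromatic scaffolds. They had a median span of 301.7 kb and a median coding length of 375 bases, and 95 of them were histone genes. Of 122 matched to the later annotation, 100 were under 2 kb long and 20 were 50 kb or more. Many histone members shared the same annotated span, as did CG32541 and CG42506 on X, so the same locus reads can count for several members. Counts below are for all members unless the arms are named. At the boundary of the rule, ab (50400 bases) and l(3)82Fd (50898 bases) were just inside, with a median over the 8 NUN libraries of 58.2 and 416 coding-sequence counts per 1000000 (CPM). Just outside were eag (49847 bases) and NetA (49820 bases), at 24.7 and 72.7 CPM.

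The authors deposited several counts per gene, and 3 measures were used. Coding-sequence counts are unique reads on the coding sequence, and locus counts are unique reads over the whole span on the gene's own strand. Non-exon counts are locus counts less those of the coding sequence and both untranslated regions of the chosen model. They can hold introns, exons of other models and genes nested on the same strand, which 70 of the 217 arm members had. The share of introns in them was not measured. The NUN libraries held 2080794 to 4623806 coding-sequence counts and the cytoplasm libraries 663876 to 1759084. In NUN, 187 members passed the count filter for coding sequence, 244 for the locus and 240 for non-exon counts. In cytoplasm 86 and 158 passed for coding sequence and locus, and only 22 of the 86 had at least 10 counts in every library. The siRNA targets were lower in the cytoplasm of the matching groups. Coding-sequence CPM of atms was 167 and 171 in siGFP, 10.7 and 5.96 in siPAF1 and 11.7 and 9.64 in the double knockdown. That of piwi was 288 and 308 in siGFP, 86.4 and 42.5 in siPIWI and 102 and 36.2 in the double knockdown. In NUN atms had 82.7 and 58.4 CPM in siGFP, 26.3 and 18.3 in siPAF1 and 34.1 and 19.0 in the double knockdown. The change of piwi was smaller there, with 1060 and 1010 in siGFP and 876 and 592 in siPIWI. The double knockdown, at 1070 and 749, overlapped siGFP. Of the 7 follicle cell markers, tj had 1880 to 3950 CPM in NUN, ptc 966 to 1320, piwi 592 to 1380, zfh1 551 to 889 and fs(1)Yb 122 to 237, while the members Fas3 and ct had 58.2 to 93.4 and 30.7 to 54.4. Of the 7 germline markers vas, nos, osk and bam were at most 2.52 CPM in NUN, AGO3 (a member) and aub at most 7.3, and rhi was at 15.9 to 47.1. Of the 5 blood cell markers srp was at 122 to 321, Pxn at 46.6 to 113, Hml at 13.8 to 29.0, Sr-CI at 5.0 to 20.4 and eater at most 1.43 CPM. Of the 5 muscle markers sls, the titin gene and itself a member, stood at 2920 to 3840 CPM in NUN and the other 4 at most at 52.6, but Mlc2 had 412 to 1380 CPM in cytoplasm. The neuronal markers elav, brp and Syt1 were at most 39.1 CPM in NUN.

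Per kilobase of coding sequence the arm members had a median of 24.7 CPM in NUN, beside 8.61 for all genes on the arms. The highest was Msp-300, a giant spectrin-repeat protein of the nuclear envelope, with 457 CPM per kb on average over the 8 libraries. CadN, which encodes N-cadherin, followed with 367, and CG42238, the adhesion protein gene ed, the corepressor gene Smr and trol, the perlecan of basement membranes, had 314, 310, 306 and 296. The TSC22-family gene bun, the NCAM-like Fas2, the AMP-activated kinase subunit SNF4Agamma, CG42389 (now mtgo), the KASH-domain gene klar and the ecdysone-induced nuclear receptor Eip75B lay between 236 and 163. The longest member on the arms, kirre, an adhesion molecule of myoblast fusion that spans 392.4 kb, had 10.6 CPM per kb. Of the other 4 among the 5 longest that passed the filter, pum, the Pumilio translational repressor, had 125 CPM per kb, Snap25, a SNARE protein, 10.2, the anchoring protein gene rg 9.35 and the RNA-binding protein gene Rbp6 4.97.

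Most members tested were higher in the NUN pellet. In siGFP cells the coding-sequence log2 ratio of NUN to cytoplasm had a median of 3.89 over 178 members tested, against 0.55 over all 7982 genes tested. The filter kept genes with enough counts in either fraction, and only 86 members passed it on cytoplasm libraries alone. For members that entered through NUN alone a high ratio is largely set by the filter. Among the 86, 58 had a log2 ratio above 3 with an adjusted p under 0.05 by the edgeR test. Of the 178, 141 were higher in NUN and 7 lower (edgeR quasi-likelihood test, Benjamini-Hochberg adjusted p under 0.05), while 36.6% of all genes tested were called higher and 30.3% lower. All 18 tested members on the list of transcription and chromatin genes were called higher, as were 13 of 14 for cytoskeleton, polarity and matrix, 11 of 12 RNA-binding, 9 of 10 signalling, 8 of 8 channel and synapse and 22 of 27 adhesion and guidance genes. Msp-300 had 18800 and 19300 coding-sequence CPM in the NUN siGFP libraries, and its log2 ratio to cytoplasm was 4.48 ± 0.58 (SE, adjusted p = 4.3e-07). Smr had 3280 and 4360 CPM and the ratio 6.45 ± 0.62 (adjusted p = 5.4e-09).

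Among the genes tested the ratio was larger in longer genes up to 50 kb, with the limit of the filter given above. On cytoplasm libraries alone 2260 genes under 2 kb passed it, 196 from 20 to 50 kb and 81 long members. In the ratio 2994, 393 and 170 were tested. A high ratio is therefore set by the filter in a larger part of the longer groups, and the trend without this was not tested. On the 5 arms its median was -1.61 for 2994 genes under 2 kb, 0.62 from 2 to 5 kb, 2.16 from 5 to 10 kb, 3.01 from 10 to 20 kb, 3.63 from 20 to 50 kb, and 3.92 for the 170 long members. The quartiles of the long members were 2.77 and 5.08. The exceptions lower in NUN were few: Gprk1, a G protein-coupled receptor kinase, had 138 ± 11.5 CPM in NUN (SD, n = 2) and 178 and 182 in cytoplasm (log2 ratio -1.95 ± 0.44, adjusted p = 0.00041). The piRNA pathway gene AGO3, at 1.36 and 2.02 CPM in NUN and 2.73 and 5.20 in cytoplasm, and dpr8, at 0.909 and 1.35 against 9.57 and 3.90, were also called lower. The remaining 4 were CG40178, nvd, Parp and CG40263. CPM are scaled within a fraction and the ratios across both fractions, with factors from 0.37 to 1.83, so the size of these ratios rests on that scaling, as for Gprk1, whose CPM differ much less than its ratio. For CG40263, nvd and Parp the direction rests on it too, since their CPM overlapped between fractions or were higher in NUN.

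**Figure D1:**
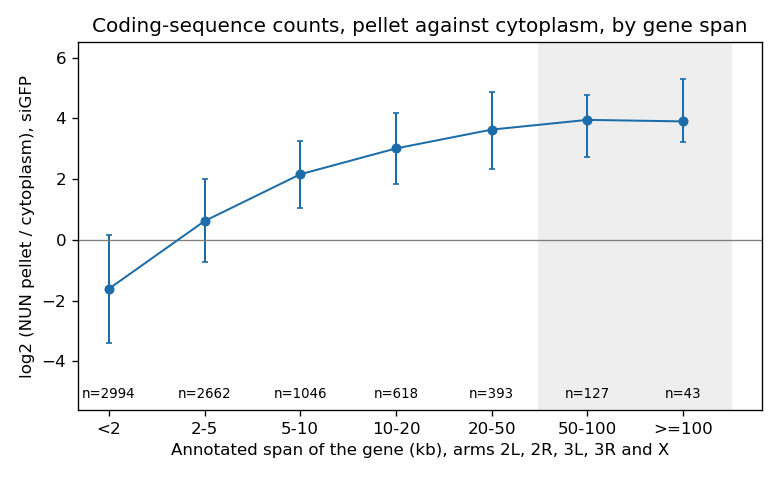
Points are the median log2 ratio of NUN pellet to cytoplasm coding-sequence counts in siGFP cells for genes on the 5 arms, in groups of annotated span in kb, with bars for the quartiles and n for the number of genes. The median climbs from -1.61 under 2 kb to 3.63 at 20 to 50 kb, and the shaded groups are the long genes. Genes that passed the count filter through NUN alone are included, and they make up more of the longer groups.

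In the coding sequence of NUN RNA no long gene passed the test with Paf1 siRNA. The effect was taken as the average of siPAF1 against siGFP and the double knockdown against siPIWI, which compares 4 libraries with 4. Its median over 187 members was 0.01, against -0.01 over the 8232 genes tested, with 95 members above 0 and 92 below. edgeR called 0 members, while 42 passed an unadjusted p of 0.05 (22.5%, beside 13.2% of all genes) and 5 were called by DESeq2. Over all genes edgeR called 0.0607% higher and 0.0121% lower, 0.0729% in all. Without siGFP library OSS_147 4 members were called. The single comparisons of siPAF1 with siGFP and of the double knockdown with siPIWI also had 0 calls, and DESeq2 called 1 member in each. At an unadjusted p under 0.05 were 35 members (18.7%, beside 10.2% of all genes) and 10 (5.35%, beside 3.61%). Of the 187, 7 were higher and 15 lower in all 4 libraries with Paf1 siRNA than in all 4 without, beside 3.66% and 5.70% of all genes.

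Named members of the coding-sequence comparison show this spread. Elk, an EAG-like potassium channel gene listed as elk on arm 2R, had 30.9 and 19.9 CPM in siGFP, 24.0 and 12.3 in siPIWI, 92.3 and 56.6 in siPAF1 and 96.7 and 43.3 in the double knockdown. Its 4 libraries with Paf1 siRNA lay above the other 4, by 1.72 ± 0.32 on the log2 scale (edgeR adjusted p = 0.081). The ubiquitin ligase gene hiw had 140 and 97.5 CPM in siGFP, 129 and 153 in siPIWI, 49.3 and 52.1 in siPAF1 and 76.5 and 77.7 in the double knockdown, which is a difference of -1.05 ± 0.16 (adjusted p = 0.058). Its groups did not overlap. The others with the largest differences among members without overlap and with a mean of at least 20 counts were Ank2 (ankyrin), Ten-m (a teneurin), CG40178 and CG33158 above, at 1.02, 0.92, 0.81 and 0.30, and CG31145, NetB (a netrin), nAcRalpha-96Aa (a nicotinic acetylcholine receptor subunit) and SKIP (the Shal potassium channel interacting protein) below, at -1.05, -0.90, -0.89 and -0.71, with adjusted p from 0.16 to 0.38. The most abundant members had small differences, such as 0.01 ± 0.14 for Msp-300, 0.13 ± 0.13 for CadN and -0.20 ± 0.14 for trol.

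The role lists gave 0 calls in the coding sequence. Over the arm members of each list the median difference was 0.13 for 12 RNA-binding genes, 0.01 for 15 cytoskeleton, polarity and matrix genes, 0.01 for 10 signalling genes, -0.02 for 19 transcription and chromatin genes, -0.10 for 27 adhesion and guidance genes and -0.59 for 10 channel and synapse genes. Of the last list 9 of 10 were below 0, hiw, SKIP, nAcRalpha-96Aa and rdo (-0.34 ± 0.17) among them. elk, which lay higher with Paf1 siRNA, Snap25 and CG32635 (now Neto) are on no list, and SKIP was moved to this list from the transcription list. The median of the list therefore depends on how genes were listed.

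Over the whole locus the members lay slightly higher with Paf1 siRNA. The median of the average effect was 0.14 over 244 members, with 171 above 0, against -0.02 over 8856 genes. On the arms 207 members were tested and 67 of them were below 0. By edgeR 1 member rose, Trim9, and 0 fell, while 0.147% of all genes rose and 0.0452% fell, 0.192% in all. Trim9 missed the threshold without siPIWI library OSS_146 (adjusted p = 0.085) or siPAF1 library OSS_147 (adjusted p = 0.058), and 3 members were called without siGFP or siPIWI library OSS_147. The single comparisons called 0 members by edgeR, with 0.0339% of all genes for siPAF1 and 0% for the double knockdown, 56 and 29 members at an unadjusted p under 0.05, and 16 and 5 by DESeq2. DESeq2 called 27 members, and 74 members had an unadjusted p under 0.05 (30.3%, beside 15.8% of all genes). The 4 libraries with Paf1 siRNA were all above the other 4 in 34 members and all below in 9, beside 4.55% and 5.79% of all genes. Members on other scaffolds are in these counts, and those that share a span can repeat the same reads. The median followed span: -0.05 for genes under 2 kb, -0.06 from 2 to 5 kb, -0.01 from 5 to 10 kb, 0.06 from 10 to 20 kb, 0.10 from 20 to 50 kb and 0.13 for the long members on the arms. In siPAF1 against siGFP the last 2 groups had 0.17 and 0.19. In the double knockdown against siPIWI they had 0.06 and 0.02, so the long members did not continue the trend there. The median of siPAF1 against siGFP over all members was 0.28 between the OSS_146 libraries and 0.11 between the OSS_147 libraries, on log2(CPM + 1), and that of the double knockdown against siPIWI was 0.06 in both. Arm members that no other gene on the same strand touches had a median of 0.12, and those with such a gene 0.14.

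**Figure D2:**
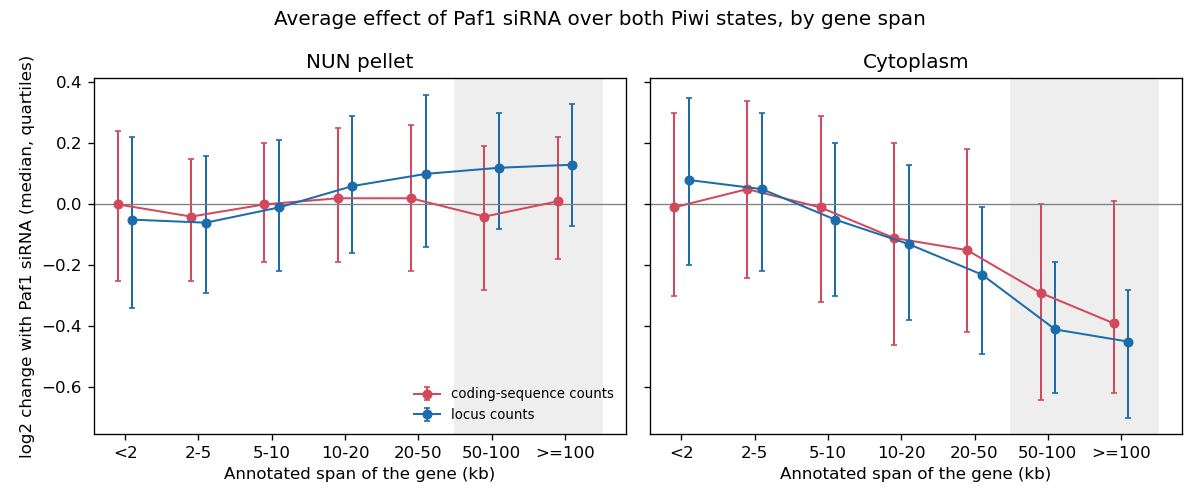
Points are medians over genes on the 5 arms of the average log2 change with Paf1 siRNA, in groups of annotated span in kb, for the NUN pellet (left) and cytoplasm (right), with bars for the quartiles and shading for the long genes. Locus counts (blue) go from -0.05 under 2 kb to 0.10 at 20 to 50 kb in NUN and from 0.08 to -0.23 in cytoplasm, and go on in the same direction in the long genes.

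The difference between non-exon and coding-sequence counts was tested by itself. The change of non-exon counts relative to that of coding-sequence counts had a median of 0.12 over 186 members, against -0.02 over 2427 genes, and 132 of the 186 were above 0. No member was called by edgeR, 19 had an unadjusted p under 0.05 (10.2%, beside 6.26% of all genes) and DESeq2 called 2. The share of non-exon counts in the locus counts of arm members was 65.7% and 65.3% in siGFP, 67.2% and 60.3% in siPIWI, 70.7% and 67.9% in siPAF1 and 68.2% and 64.2% in the double knockdown. It was higher in siPAF1 than in siGFP, and the double knockdown and siPIWI overlapped. Over all genes the share was 28.2% and 25.7% in siGFP, 26.6% and 22.5% in siPIWI, 32.0% and 27.6% in siPAF1 and 29.2% and 24.1% in the double knockdown, and there both pairs of groups overlapped.

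Non-exon counts gave the largest number of called members. With the average effect of Paf1 siRNA 5 of 240 members rose and 10 fell by edgeR, while 1.88% of the 2604 genes tested rose and 1.23% fell, and the members' median was 0.08 against -0.04. The 5 that rose were Elk, CG42402, Trim9, X11Lbeta and ed. Levels in this paragraph and the next are non-exon CPM, per 1000000 non-exon counts. Elk had 154 and 116 in siGFP, 156 and 122 in siPIWI, 695 and 404 in siPAF1 and 765 and 312 in the double knockdown. Every library with Paf1 siRNA was above every library without, and the gene rose by 1.98 ± 0.32 on the log2 scale (adjusted p = 0.030). The adaptor protein gene X11Lbeta (chrX:10523348-10603712, plus strand) went from 1400 and 1280 in siGFP and 2100 and 1740 in siPIWI to 2650 and 2350 in siPAF1 and 2470 and 2440 in the double knockdown, a rise of 0.63 ± 0.09 (adjusted p = 0.025), and its coding-sequence CPM of 702 to 973 over the 8 libraries had no such split. ed rose by 0.39 ± 0.07 (adjusted p = 0.035) from 3560 to 4580 without Paf1 siRNA to 4770 to 5520 with it. CG42402, on a heterochromatic scaffold and 26388 bases long in the later annotation, so not a long gene there, rose by 1.56 ± 0.32 (adjusted p = 0.047), with 10.7 to 25.3 without and 23.5 to 85.2 with it, which overlap. Trim9 had 78.0 and 91.1 in siGFP, 299 and 329 in siPIWI, 186 and 327 in siPAF1 and 594 and 650 in the double knockdown.

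The 10 that fell were the genes of the secreted matricellular protein Ccn, of the carbonic anhydrase-related protein CG32698 (now CARPB), of nAcRalpha-96Aa, of timeout, a relative of the clock gene timeless, of CG32635 (now Neto, a glutamate receptor auxiliary protein), of CG30463 (now Pgant9, a GalNAc transferase), of Sema-1a, a transmembrane semaphorin, of SKIP, of haf, a leucine-rich repeat protein, and of CG32264. nAcRalpha-96Aa (chr3R:20226948-20282651, minus strand) had 578 and 464 CPM in siGFP, 506 and 371 in siPIWI, 227 and 209 in siPAF1 and 234 and 211 in the double knockdown. The change was -1.12 ± 0.15 (adjusted p = 0.023), and the groups with and without Paf1 siRNA did not overlap. SKIP, which spans 161.5 kb, had 7200 to 8730 CPM without Paf1 siRNA and 5590 to 6480 with it and fell by 0.41 (SE 0.07, adjusted p = 0.033). CG32698 decreased by 1.40 from 86.8 to 135 down to 23.5 to 47.6, and timeout by 0.62 from 1320 to 1650 down to 941 to 1010 CPM. Sema-1a went from 2030 to 2490 down to 1550 to 1680. CG32635, CG30463, CG32264 and haf changed by -0.59, -0.52, -0.43 and -0.41, and only CG30463 overlapped between libraries with and without Paf1 siRNA among these 4. Ccn changed by -2.01 ± 0.29 (adjusted p = 0.025), and its siGFP libraries (8.78 and 13.5) were below those of the double knockdown (25.8 and 24.7). By list, 2 adhesion and guidance genes (Sema-1a and haf) and 2 channel and synapse genes fell, 1 adhesion gene (ed) rose, and the RNA-binding, signalling, cytoskeletal and transcription lists had 0 calls.

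These calls depend on the libraries. In the comparisons of 2 libraries with 2, siPAF1 against siGFP and the double knockdown against siPIWI, edgeR called 0 members each and DESeq2 called 26 and 11. At an unadjusted p under 0.05 were 61 members (25.4%, beside 15.4% of all genes) and 38 (15.8%, beside 8.06%). With any 1 of the 8 NUN libraries left out, 0 to 4 members were called for the average effect. It was 0 without siGFP, siPIWI or siPAF1 library OSS_146 or siPAF1 library OSS_147, 1 without double-knockdown library OSS_147, 3 without siPIWI library OSS_147, and 4 without siGFP library OSS_147 or double-knockdown library OSS_146. DESeq2 called 53. The sign did not change in any of these fits for any of the 15 members. They were chosen by their calls in the same libraries, so a constant sign is largely built in and is no separate support. siPAF1 against siGFP and the double knockdown against siPIWI share no library, and 169 of 240 members (70.4%) had the same sign in both, 103 above 0 and 66 below, beside 71.7% of the other genes. Here too, members that share a span can repeat the same reads.

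**Figure D3:**
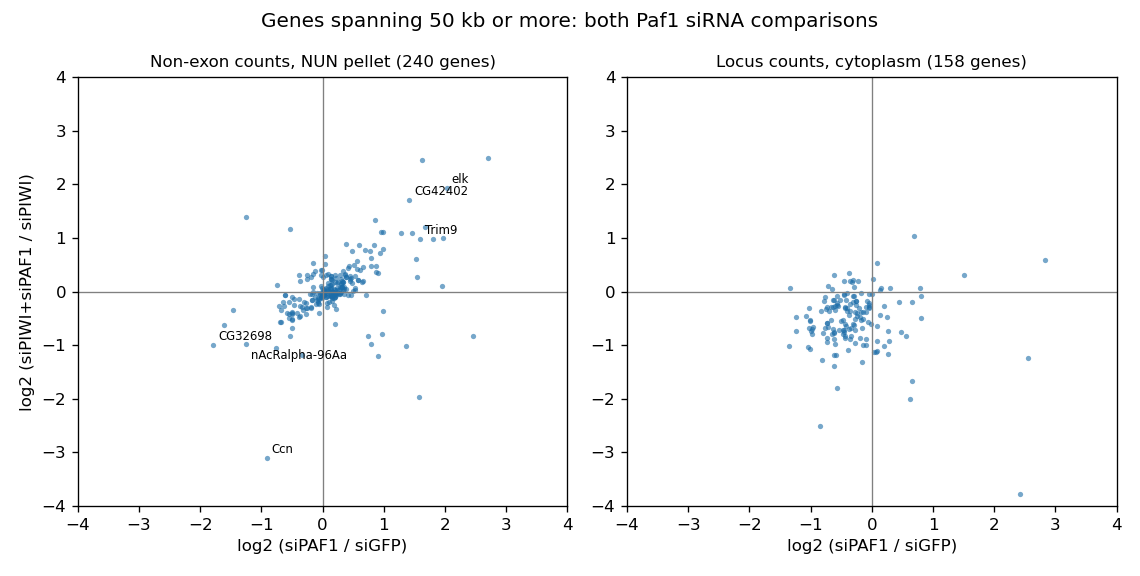
Each point is a gene spanning 50 kb or more, placed by its log2 change in siPAF1 against siGFP (x axis) and in the double knockdown against siPIWI (y axis), for non-exon counts in the NUN pellet (left, 240 genes) and locus counts in cytoplasm (right, 158 genes). In cytoplasm 115 of the 158 lie below 0 in both comparisons, and in NUN 6 genes named in the text are labelled.

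Piwi siRNA raised 4 long genes in NUN locus counts: Ccn, CG12484 (now side-VIII), Trim9 and CG34353. edgeR called 4 of 244 members up and 0 down, beside 0.169% and 0% of the 8856 genes, and the members' median was -0.07 against 0.01. Values in this paragraph are locus CPM in NUN. Ccn (chr3L:17683115-17741941, plus strand) had 3.07 and 4.14 in siGFP, 95.7 and 42.6 in siPIWI, 2.0 and 2.04 in siPAF1 and 9.34 and 7.26 in the double knockdown. It rose by 4.24 ± 0.44 on the log2 scale with siPIWI (adjusted p = 0.027), and in the double knockdown it was lower than in siPIWI in both libraries, with a log2 difference of -3.07 ± 0.41 (adjusted p = 0.081). Its coding sequence held at most 3.13 CPM in any NUN library, so most of these reads lay outside it. The nested gene CG7460 on the same strand had 69 counts beside the 815 locus counts of Ccn in siPIWI library OSS_146, and 8 beside 136 in OSS_147. In non-exon counts of NUN 2 members, Ccn and CG12484, were called higher with siPIWI, beside 0.23% of all genes.

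The other 3 were highest in the double knockdown. CG12484, a sidestep-family immunoglobulin gene on arm 2R spanning 54.6 kb, had 17.3 and 18.3 CPM in siGFP, 106 and 62.9 in siPIWI, 43.6 and 61.7 in siPAF1 and 141 and 124 in the double knockdown. The rise was 2.25 ± 0.30 with siPIWI (adjusted p = 0.039) and 2.89 ± 0.31 with both siRNAs (adjusted p = 0.023). Trim9, a ubiquitin ligase that acts with netrin receptors in fly neurons (chr2L:10544881-10627374, plus strand), had 26.5 and 26.9 in siGFP, 85.0 and 79.5 in siPIWI, 74.5 and 94.0 in siPAF1 and 189 and 159 in the double knockdown. Its rise was 1.62 ± 0.21 with siPIWI (adjusted p = 0.029), 2.70 ± 0.21 with both siRNAs (adjusted p = 0.0066) and 1.37 ± 0.14 as the average effect of Paf1 siRNA (adjusted p = 0.012). The 2 single knockdowns of Trim9 overlapped, and both lay above siGFP and below the double knockdown. CG34353 (chr3R:23593688-23731565, minus strand) had 67.0 and 73.3 in siGFP, 186 and 198 in siPIWI, 126 and 159 in siPAF1 and 227 and 290 in the double knockdown, and rose by 1.45 ± 0.20 with siPIWI (adjusted p = 0.049) and 1.88 ± 0.21 in the double knockdown (adjusted p = 0.023).

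In the double knockdown against siGFP edgeR called these 3 of 244 members, all higher, beside 0.0678% of all genes, and 61 members had an unadjusted p under 0.05. The calls of the double knockdown and those of siPIWI share the siGFP libraries. These calls were sensitive to single libraries, also to those outside the comparison, which share in the spread. With 1 of the 8 left out in turn, the siPIWI call held in 3 of 8 fits for Ccn, 1 for CG12484, 1 for Trim9 and 0 for CG34353, and the double-knockdown call in 7 for Trim9, 2 for CG12484 and 1 for CG34353. All 4 siPIWI calls ended without either siGFP library, siPIWI library OSS_146 or either siPAF1 library, and the highest adjusted p, without siGFP library OSS_147, were 0.26 for Ccn, 0.28 for Trim9 and 0.31 for CG12484 and CG34353. The log2 changes with siPIWI then ranged from 3.53 to 4.70 for Ccn, 1.82 to 2.58 for CG12484, 1.57 to 1.67 for Trim9 and 1.39 to 1.51 for CG34353. In the coding sequence of NUN, 0 members were called for siPIWI (0.121% of all genes) and 0 for the double knockdown (0.0121%), and DESeq2 called 1 and 3. At an unadjusted p under 0.05 were 16 members (8.56%, beside 2.17% of all genes) and 38 (20.3%, beside 5.89%). The 3 genes left out by the rule included dp, at 37.7 and 23.2 locus CPM in siGFP, 579 and 436 in siPIWI and 113 and 50.6 in the double knockdown, and para, at 34.9 and 44.3, 87.0 and 74.8, 150 and 170 in siPAF1 and 214 and 228 in the double knockdown; CG30115 had 279 to 504.

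**Figure D4:**
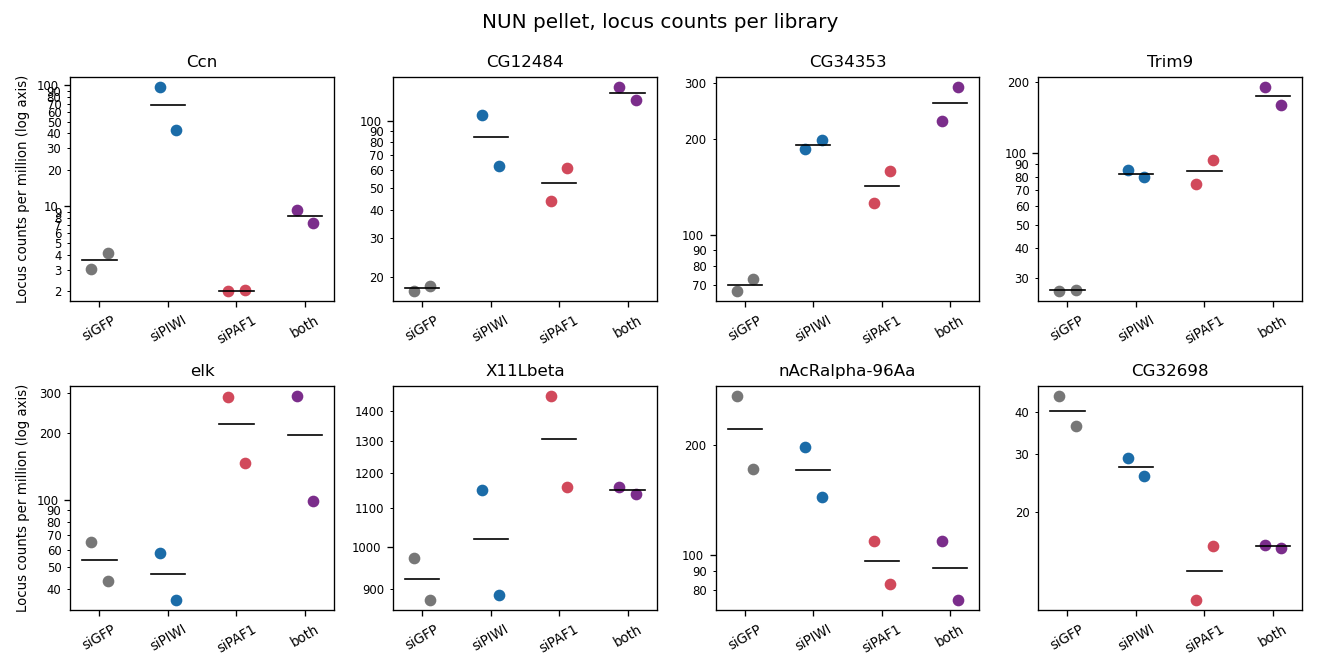
Locus CPM in the 8 NUN libraries for 8 long genes, on log axes that differ between panels, with a dot per library and a bar at the mean of each pair. Ccn is at 42.6 to 95.7 in siPIWI and 7.26 to 9.34 with both siRNAs, while Trim9 is highest, at 159 to 189, with both.

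In cytoplasm the locus counts of long genes lay lower with Paf1 siRNA. The median of the average effect was -0.41 over 158 members, against 0.01 over 6655 genes, and 144 of the 158 were below 0. edgeR and DESeq2 called 0 members, 34 had an unadjusted p under 0.05 (21.5%, beside 13.3% of all genes), and 0.0451% of all genes were called higher and 0.135% lower (0.18% in all). Without siPIWI library OSS_147 3 members were called lower. In 21 members all 4 libraries with Paf1 siRNA were below the other 4 and in 0 members all were above, beside 4.49% and 3.44% of all genes. The comparisons of siPAF1 with siGFP and of the double knockdown with siPIWI, which share no library, had medians of -0.37 and -0.47. edgeR called 0 members in each (0.0301% and 0.015% of all genes higher, 0.015% lower in both), 12 and 19 passed an unadjusted p of 0.05, and DESeq2 called 0. Of the members, 124 of 158 (78.5%) had the same sign in both, 115 of them below 0, beside 61.5% of the other genes. Across members the 2 log2 changes correlated at -0.05, beside 0.28 over the other genes. The shared sign thus follows the 2 medians, and which members changed most was not shared. By replicate number the median of the average effect was -0.45 for the OSS_146 libraries and -0.30 for the OSS_147 libraries on log2(CPM + 1). It ran with span, from 0.08 for genes under 2 kb through 0.05, -0.05, -0.13 and -0.23 to -0.42 for the long members on the arms.

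Single members had the same direction with wide errors. SKIP had 111 and 114 locus CPM in the cytoplasm of siGFP cells, 97.9 and 130 in siPIWI, 74.8 and 72.7 in siPAF1 and 46.4 and 78.3 in the double knockdown, a difference of -0.75 ± 0.23 (edgeR adjusted p = 0.20) with no overlap between 4 and 4. kirre had 96 and 60.5, 58.7 and 53.9, 43.7 and 33.5, and 33.3 and 45.1 in the same order (-0.78 ± 0.24, adjusted p = 0.20). pum went from 33.2 to 50.3 down to 22.2 to 27.6 (-0.64 ± 0.24) and CadN from 116 to 197 down to 86.3 to 113 (-0.53 ± 0.22), again with no overlap. trol, at 213 to 275 without and 173 to 193 with Paf1 siRNA, differed by -0.35 ± 0.21. bun was an exception at 0.16 ± 0.53, with values from 37.4 to 304 in the 8 libraries. By list, all 24 adhesion and guidance genes, all 12 cytoskeleton, polarity and matrix genes and all 11 RNA-binding genes tested were below 0, as were 15 of 16 transcription and chromatin, 8 of 9 channel and synapse and 5 of 9 signalling genes. Members that no other gene on the same strand touches had a median of -0.46 (86 of 92 below 0), and those with such a gene -0.40 (48 of 56). Of the genes named here, kirre has 12 such genes and SKIP and bun 1 each, whose part in the locus counts was not tested.

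The amount of pellet-enriched RNA in the cytoplasm lysates differed between libraries. Coding-sequence counts of 1271 other genes enriched in NUN (log2 ratio above 3) made up 0.442% and 0.703% of the cytoplasm counts in siGFP, 3.32% and 0.781% in siPIWI, 0.926% and 0.933% in siPAF1 and 2.14% and 0.662% in the double knockdown. The arm members took 0.228% and 0.303%, 1.29% and 0.421%, 0.421% and 0.291%, and 0.325% and 0.295% of coding-sequence counts in the same order, and 6.94% to 7.92% of those in NUN. siPIWI library OSS_146 was the highest by both measures. In that library the mucin gene Muc14A alone held 28.1% of the locus counts of arm members. Its part in their coding-sequence share was not worked out. The 1271 genes were chosen by their ratio in the same siGFP libraries, so a low siGFP share is partly built in. In locus counts the other pellet-enriched genes had a median of -0.13 for the average effect of Paf1 siRNA and the members that are themselves pellet-enriched -0.46; the 54 members that are not had -0.32. Without siPIWI library OSS_146 the members' locus median was -0.35. The part of pellet RNA in the locus values was not tested further. In bulk RNA, fewer cells of a type and less RNA per cell cannot be told apart.

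Coding-sequence counts in cytoplasm rested on that library. Their median for the average effect of Paf1 siRNA was -0.32 over 86 members, against -0.01 over 5714 genes, with 64 below 0, and it was 0.20 without siPIWI library OSS_146. edgeR called 0 members (0.0175% of all genes higher, 0.175% lower, 0.193% in all), while 8 passed an unadjusted p of 0.05 (9.30%, beside 8.96%) and 1 was called by DESeq2. Without siPIWI library OSS_147 5 members were called lower. With siPIWI the members' median was 0.98 against 0.18, with 73 of 86 above 0, and it was -0.09 without library OSS_146. edgeR (0% of all genes) and DESeq2 called 0 members, and 16 had an unadjusted p under 0.05 (18.6%, beside 15.1% of all genes). Without siPIWI library OSS_147, the lower one, the siPIWI group was library OSS_146 alone, so calls of that fit are not read as a result about long genes. The other pellet-enriched genes had a median of 1.29 in the same comparison, part of which is built in by their choice on siGFP counts. The difference between fractions in the effect of Paf1 siRNA on the coding sequence, tested as an interaction, had a median of 0.26 over 178 members, against -0.01 over 7982 genes, with 0 called by edgeR or DESeq2 and 7 at an unadjusted p under 0.05 (3.93%, beside 4.36% of all genes). That median was -0.42 without siPIWI cytoplasm library OSS_146.

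**Figure D5:**
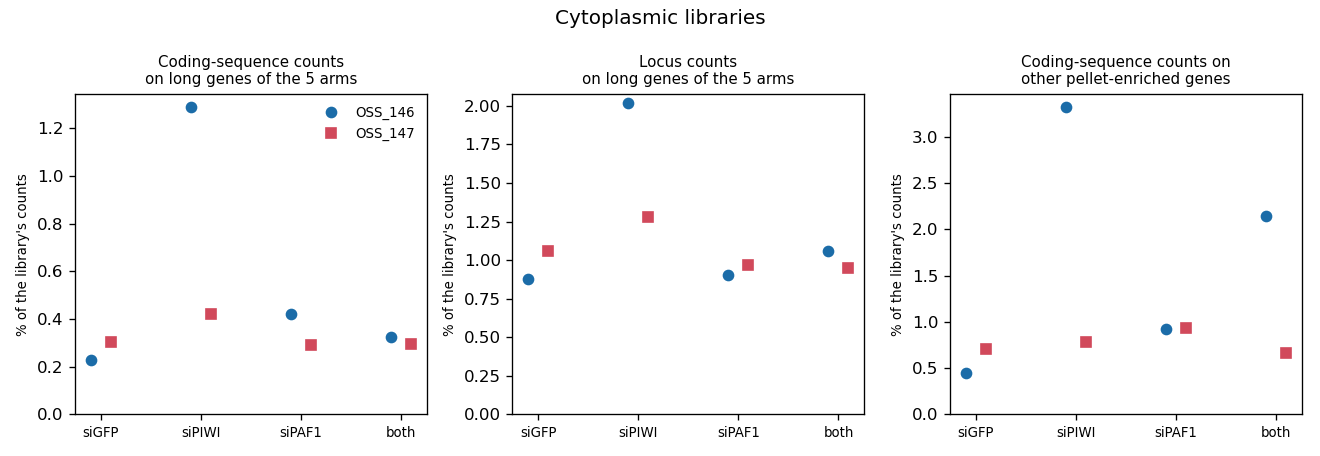
Share of each cytoplasm library's counts on the long genes of the 5 arms (coding sequence, left; locus, middle) and on other genes enriched in the NUN pellet (right), by siRNA, with circles for OSS_146 and squares for OSS_147 libraries. The siPIWI library OSS_146 is the highest in all 3 panels, with 1.29%, 2.02% and 3.32%. In it the gene Muc14A held 28.1% of the locus counts of the long genes. The genes at right were chosen by their ratio in the siGFP libraries.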

How the data were processed

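Strand-specific libraries (NEBNext Ultra Directional) were, per the labels, made from total RNA, and Bowtie is the aligner listed in the submitters' processing notes. The genome build is not given in the sources used here. The deposited files hold, for 24995 transcript models, raw counts of uniquely mapped reads by region and strand, without normalization by the authors. The column used took 95.4% of coding-sequence counts of plus-strand genes and 96% of minus-strand genes. Locus windows of arm members differed between libraries by a median of 0.278% and at most 20.4%. Non-exon counts below 0 (1.64% of values of arm members, 34.0% of all) were set to 0. Where models tied in coding length the first listed was kept, which decides membership for 14 genes. Starts in the files count from 0 and are given from 1.

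Tests used edgeR 4.0.16 in R 4.3.3 (filterByExpr, TMM, robust quasi-likelihood F test, Benjamini-Hochberg adjustment over all genes of a comparison, threshold 0.05). The biological coefficient of variation was 21.2%, 28.5% and 37.7% for coding-sequence, locus and non-exon counts in NUN and 32.0% and 27.4% for the first 2 in cytoplasm. Levels are CPM on TMM-scaled totals of the same measure and fraction. The fits were tested on simulated data. Alternatives were DESeq2 1.42.0 (size factors, Wald test), other filters, strands, alignments, span limits, models, a replicate block and leaving out each library. The members, the role lists, the naming rule and the alternatives were chosen with earlier results of these data known, and 4 alternatives (arms only, both ways of breaking ties, the opposite strand) were chosen after seeing the data. SKIP had been put on the transcription list by mistake and was moved to channels and synapse.

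Genes were named if they passed the threshold in any comparison of siRNAs, were among the 12 most abundant per kb or the 5 longest, had no overlap between libraries with and without Paf1 siRNA (5 largest and 5 lowest, mean of at least 20 counts), or were among the 2 most abundant of a list; genes beside the limit, genes left out and the siRNA targets were added. A later annotation (Release 6) gave current names and lengths only. No sequences are printed.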

Additional observations from a re-analysis of the deposited data

How the results depend on the processing

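Counts here are of long genes called by edgeR unless another tool is named, and the cause of each change was not tested. Shares of all genes called in these alternative fits are not given, so the counts cannot be set against them. The same holds for the DESeq2 counts above. For the average effect of Paf1 siRNA, DESeq2 called 5 in NUN coding sequence, 27 in NUN locus, 53 in NUN non-exon, 1 in cytoplasm coding sequence and 2 for non-exon against coding sequence. Without the filter on low counts the average effect gave 16, 17, 50, 2 and, in cytoplasm locus, 7, and the NUN non-exon median was 0.12. For siPAF1 against siGFP DESeq2 called 1 (coding), 16 (locus) and 26 (non-exon) in NUN, and no filter gave 11, 1 and 28, with 2 in cytoplasm locus. For the double knockdown against siPIWI DESeq2 called 1, 5 and 11, and no filter gave 2, 1 and 12, with 3 in cytoplasm locus. For siPIWI DESeq2 called 1, 9 and 10; no filter gave 2 in coding sequence, 14 in non-exon and 1 in cytoplasm locus. For the double knockdown against siGFP DESeq2 called 3 (coding) and 20 (locus), and no filter gave 12 and 10, with 3 in cytoplasm locus.

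The numbers in the library names were not shown to pair the libraries: deviations of same-numbered libraries correlated at -0.32 to 0.66 in NUN and -0.16 to 0.56 in cytoplasm. With the replicate number as a block, the average effect called 1 (NUN coding), 8 (NUN locus), 56 (NUN non-exon), 2 (cytoplasm coding) and 3 (cytoplasm locus). The block gave 1 (NUN locus) and 23 (non-exon) for siPAF1, 4 (non-exon) for the double knockdown against siPIWI, 2 (locus) and 7 (non-exon) for siPIWI, and 5 (NUN locus) and 1 (cytoplasm coding) for the double knockdown against siGFP.

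Fits of the compared groups alone gave 1 (locus) and 1 (non-exon) for siPIWI in NUN, and for the double knockdown against siGFP 0 in NUN locus, 2 in cytoplasm coding sequence and 2 in cytoplasm locus. Counting both strands, or putting back dp, para and CG30115, gave 1 each in NUN coding sequence for the average effect, siPIWI and the double knockdown against siGFP; putting them back gave 1 for siPAF1 and 2 for the average effect in NUN locus. A limit of 40000 bases gave 1 and 2 for the same comparisons. At 75000 bases siPIWI had 2 (locus) and 0 (non-exon), the average effect 6 (non-exon) and the fraction comparison 75; at 100000 bases these were 1, 0, 2 and 38, with 0 for the average effect and 1 for the double knockdown in NUN locus. The median ratio of NUN to cytoplasm was 3.75 with DESeq2, 4.02 with its size factors, 3.72 with no filter, 3.93 with 10 counts in every library of a group, 4.01 from siGFP alone, 3.92 on the arms, and 3.85, 3.92 and 3.68 at limits of 40000, 75000 and 100000 bases.

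With each library left out in turn, the average effect called 0 to 4 (NUN coding), 0 to 3 (NUN locus), 0 to 4 (non-exon, median 0.03 to 0.14), 0 to 5 (cytoplasm coding, median -0.54 to 0.20) and 0 to 3 (cytoplasm locus). The ranges were 0 to 3 (locus) and 0 to 3 (non-exon) for siPIWI in NUN, 0 to 24 in cytoplasm coding sequence, 0 to 2 (NUN locus) and 0 to 4 (cytoplasm coding) for the double knockdown against siGFP, and 0 to 1 (NUN locus), 0 to 6 (cytoplasm coding) and 0 to 2 (cytoplasm locus) for the double knockdown against siPIWI. The fraction median ran from 3.84 to 4.28. In cytoplasm each upper count came without siPIWI library OSS_147. That fit leaves library OSS_146 alone in the siPIWI group, so these upper counts are not read as results about long genes. In cytoplasm 22 members had 10 or more coding-sequence counts in every library, and what could be detected at these counts was not tested.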

Other observations

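A few members took much of the locus signal in cytoplasm. Snap25, which spans 225.0 kb on arm 3L, had 7.92% to 25.7% of the locus counts of arm members in the 8 cytoplasm libraries and 1.34% to 5.03% in NUN. Its coding sequence held 0 to 4 counts in each cytoplasm library, beside 1011 to 6622 locus counts. The mucin gene Muc14A was the top member in 4 cytoplasm libraries, with 12.5% to 28.1%. Both genes were picked out after their values were seen.

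Reads on the opposite strand of the locus were tested in NUN after seeing the other results. The median of the average effect of Paf1 siRNA was 0.45 over 248 members, against -0.04 over 6133 genes, and edgeR called 0 members and 0 genes, with 46 members and 786 genes at an unadjusted p under 0.05. The opposite strand held 6.12% and 6.27% of both strands' locus counts of arm members in siGFP, 6.78% and 6.34% in siPAF1, 6.99% and 7.77% in siPIWI and 8.03% and 7.93% in the double knockdown. Genes nested on the other strand lie in many arm members, and their part was not tested.

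In 30 arm members whose untranslated windows were the same in all NUN libraries, summed reads per base of the 3′ window were 0.326 to 0.700 of those of the 5′ window, beside 0.835 to 1.14 in 468 other genes. The values with Paf1 siRNA (0.326, 0.446, 0.487 and 0.645) lay within those without (0.388 to 0.700) except the lowest.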
